A study of Mus musculus with 35 samples.

Results

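Activins and the TGF-β proteins are secreted ligands of one signalling family, and 10 of its genes were followed here in the mouse hippocampus after an experimental seizure. The 10 are the ligand genes Inhba, Tgfb1 and Tgfb2, the receptor genes Acvr1, Acvr1c, Acvr2a, Tgfbr1 and Tgfbr2, and the inhibitor genes Smad7 and Fst, out of 32544 genes in the count tables. They were chosen by measured values of these same libraries, the differences between KA and PBS mice, so those differences are given below as a description and without P values. Calls of members on those differences appear at the end only to show what the processing does. The comparison of m6A libraries with input libraries did not choose the genes and was tested.

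Adult male C57BL/6JOlaHsd mice received kainic acid (KA) or phosphate-buffered saline (PBS) into the amygdala through a cannula, and the hippocampus was taken 24 h or 2 weeks later. KA, a glutamate receptor agonist, provokes status epilepticus, which was shortened with lorazepam, and the mice go on to have spontaneous seizures by the later time. All mice carried the cannula and no mouse carried a transgene. Each mouse gave an m6A library, made from polyadenylated RNA pulled down with an antibody to N6-methyladenosine (m6A), or an input library of total RNA, or both. The m6A libraries came from 5 KA and 3 PBS mice at 24 h and from 6 KA and 5 PBS mice at 2 weeks. Input libraries of usable depth came from 3 KA mice and 1 PBS mouse at 24 h and from 6 KA and 3 PBS mice at 2 weeks. Mice are named by the numbers of the labels.

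An activin or TGF-β dimer binds a type II receptor, which phosphorylates a type I receptor, and the type I receptor phosphorylates Smad proteins that enter the nucleus and change transcription. Inhba encodes the βA subunit that forms activin A, a ligand known to be induced by neuronal activity in the hippocampus and to protect neurons from excitotoxic injury. TGF-β signalling is known for its part in glial and vascular responses to brain injury, and it induces its own inhibitor Smad7, while follistatin, from Fst, binds activin outside the cell.

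The input libraries used held 3057578 to 12694434 counts with a median of 5498360, and the m6A libraries 1652933 to 34564536 with a median of 15291875. The shallowest m6A libraries were those of KA mice 98 and 67 at 24 h, with 1652933 and 1979606 counts. Mitochondrial genes took 16.4% of the m6A counts and 17.4% of the input counts of KA mouse 8 at 24 h, and 17.5% of the m6A counts of KA mouse 6 at 2 weeks. The column names place the m6A libraries in 3 sets, called 3, 4 and 5 after their prefix, and the inputs in a set with and a set without a prefix. At 24 h only set 4 held m6A libraries of both groups (KA mice 79 and 97, PBS mice 71 and 73). At 2 weeks only set 5 did (KA mice 7, 9 and 21, PBS mice 2, 3 and 4), and among inputs only the set without a prefix (KA mice 5, 21 and 42, PBS mice 2, 3 and 4). Log2 differences within these sets are given beside the pooled ones.

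Levels are given as CPM, the counts of a gene in 1000000 counts of its library, and are compared between libraries of 1 gene and not between genes. A difference is the log2 fold change of KA over PBS from edgeR with its standard error, and a gene counts as called when its Benjamini-Hochberg adjusted P is under 0.05. Hippocampal subfield markers were present in all the libraries used, summing to 306 to 1483 CPM in m6A and 351 to 1374 CPM in input libraries. The samples are bulk tissue, in which fewer cells of a type and less RNA per cell cannot be told apart.

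The start regions of the members on which the results turn are shown to place those genes and to compare their base composition: Inhba and Acvr1c, the members highest in KA m6A libraries at 2 weeks by fold change, and Tgfb2, which was higher in the m6A than in the input library of all 9 mice with both. Each window holds 250 bases before to 50 bases after the RefSeq start in GRCm38.p6 (mm10), 5′ to 3′ on the gene's strand, and capitals mark the motifs found. The letters searched on both strands were TGANTCA (AP-1), TGACGTCA (CRE), TGACG (the first part of CRE, so that each CRE holds it), CAGAC (the Smad-binding element core) and TATAAA (the core promoter element of that name), and the shares of 32851 windows that hold them were 7.81%, 1.79%, 20.8%, 49.6% and 13.6%. The Inhba window is chr13:16011601-16011900 on the plus strand, the Acvr1c window chr2:58357709-58358008 on the minus strand and the Tgfb2 window chr1:186705940-186706239 on the minus strand.
Inhba: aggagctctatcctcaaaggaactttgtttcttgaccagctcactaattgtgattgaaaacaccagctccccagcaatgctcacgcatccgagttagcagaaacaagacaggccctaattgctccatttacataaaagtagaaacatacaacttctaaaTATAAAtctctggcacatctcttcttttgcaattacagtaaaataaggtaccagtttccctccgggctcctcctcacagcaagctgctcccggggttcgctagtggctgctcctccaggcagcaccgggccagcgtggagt
Acvr1c: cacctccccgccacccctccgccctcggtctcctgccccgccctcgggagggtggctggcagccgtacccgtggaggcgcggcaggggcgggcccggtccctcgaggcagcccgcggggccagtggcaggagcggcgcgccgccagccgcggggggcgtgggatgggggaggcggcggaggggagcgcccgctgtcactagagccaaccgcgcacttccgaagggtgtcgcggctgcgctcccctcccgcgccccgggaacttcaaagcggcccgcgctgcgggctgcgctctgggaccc
Tgfb2: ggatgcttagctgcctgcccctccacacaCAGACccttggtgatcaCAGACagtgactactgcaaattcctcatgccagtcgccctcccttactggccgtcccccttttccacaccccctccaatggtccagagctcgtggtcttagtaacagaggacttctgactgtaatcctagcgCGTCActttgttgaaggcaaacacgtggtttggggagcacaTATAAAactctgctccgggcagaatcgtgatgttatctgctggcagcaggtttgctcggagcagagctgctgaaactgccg

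RefSeq places Inhba at chr13:16004256-16031609, Acvr1c at chr2:58267453-58357896 and Tgfb2 at chr1:186622787-186709697, and each window lies over a start inside the annotated gene. The Inhba window held TATAAA 91 bases before the start and no other motif searched. The Acvr1c window held none, in 79.0% G and C. The Tgfb2 window held TATAAA 31 bases before the start, TGACG as CGTCA on the printed strand 72 bases before it, and CAGAC 221 and 204 bases before it. Among the 8 members whose windows were searched, TATAAA was found in those of Inhba and Tgfb2 alone, and their G and C contents of 47.7% and 54.3% were near the median of 52.7% over all windows. The windows of Acvr1, Acvr2a and Tgfb1 held 83.7%, 80.3% and 77.0%, and that of Tgfbr2 held 59.0%. Acvr1c had another window, not printed, at 50.3%, and Tgfbr1 had windows at 74.7% and 52.0%. Windows without TATAAA thus lay both near the median and far above it. A match of letters is not a bound site.

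Inhba ranged widely among the KA mice. In the m6A libraries at 24 h it stood at 61.4 CPM in KA mouse 8, 46.0 in mouse 67, 818 in mouse 79, 260 in mouse 97 and 7.86 in mouse 98. The PBS mice 1, 71 and 73 had 4.06, 10.5 and 11.6 CPM. The libraries of KA mice 79 and 97 stood far above the rest. Both belonged to set 4, where PBS libraries over both times held 10.5 to 25.3 CPM, against 1.98 to 8.64 CPM in sets 3 and 5. The library of mouse 98, the shallowest, lay among the PBS libraries, so the groups overlapped. The difference was 4.68 ± 1.34 on the log2 scale over all libraries and 5.49 ± 0.70 within set 4.

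At 2 weeks Inhba in the m6A libraries ran from 4.44 CPM through a median of 38.7 to 94.0 CPM in KA mice. The PBS mice 2, 3, 4, 50 and 78 had 8.64, 6.41, 1.98, 25.3 and 20.6 CPM. KA mice 6 and 21, at 4.44 and 8.71 CPM, lay within the PBS range, and the log2 difference was 1.74 ± 0.71, or 3.19 ± 0.77 within set 5. In the input libraries at 2 weeks KA mice ran from 7.57 through a median of 14.7 to 45.3 CPM, against 4.22, 5.70 and 6.99 CPM in the PBS mice. Here every KA library lay above every PBS library, with a log2 difference of 1.85 ± 0.60, or 1.56 ± 0.51 within the set without a prefix. The inputs at 24 h held 22.6 CPM in KA mouse 67, 23.6 in mouse 8 and 5.63 in mouse 98, against 3.07 CPM in the only PBS library, and are compared by size alone.

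**Figure D1:**
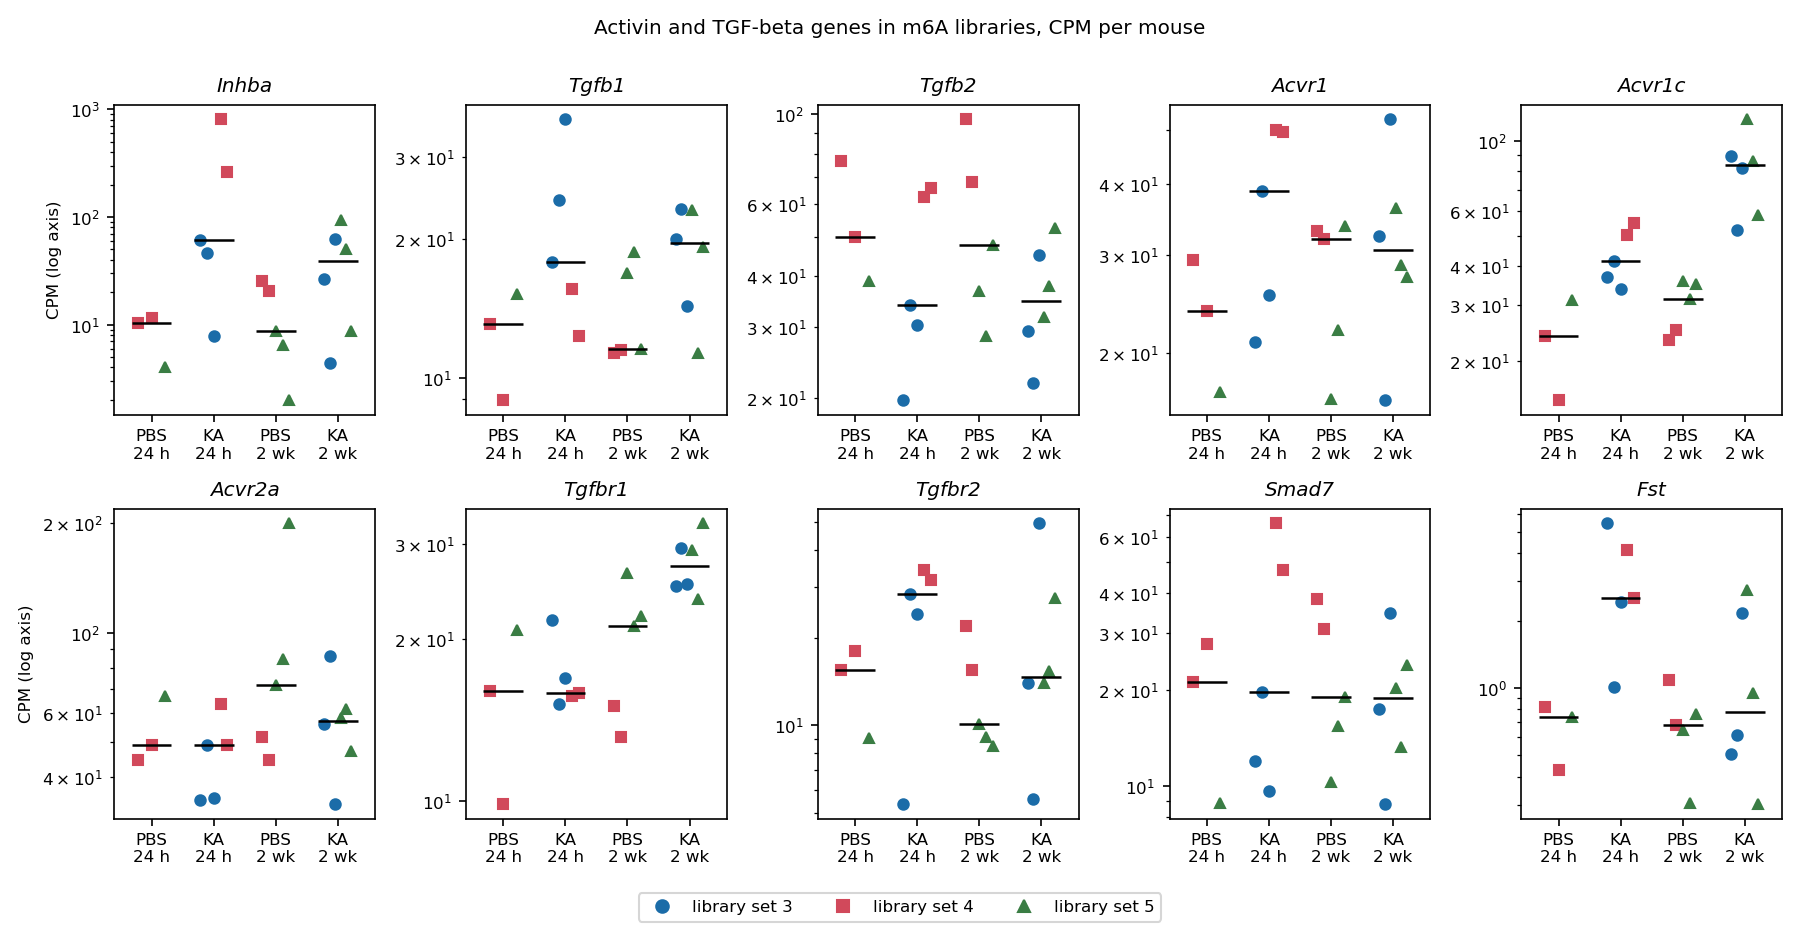
Levels of the 10 genes in the m6A libraries, in CPM on a log axis, with 1 point per mouse, colour and marker for the library set and a bar for the group median. Inhba in KA mice at 24 h spans 7.86 to 818 CPM, while Acvr1c lies above all PBS libraries in every KA library at both times.

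Tgfb1 and Tgfb2 encode ligands of the TGF-β receptors, and their differences between groups were small or of unequal sign. Tgfb1 at 24 h had 17.8, 24.2, 15.6, 12.3 and 36.3 CPM in the m6A libraries of KA mice 8, 67, 79, 97 and 98 and 15.2, 13.05 and 8.94 CPM in PBS mice 1, 71 and 73. Its log2 difference of 0.75 ± 0.39 was 0.23 within set 4, and its levels in input were lower in all 3 KA libraries (18.5, 25.6 and 24.1 CPM in mice 8, 67 and 98) than in the only PBS library (28.4 CPM). Such an order held for 35.6% of all genes with a mean of at least 1 CPM. At 2 weeks the m6A level ran from 11.3 through 19.6 to 23.2 CPM in KA mice against 16.9, 18.7, 11.6, 11.3 and 11.5 CPM in PBS mice 2, 3, 4, 50 and 78. The inputs ran from 13.6 through 16.6 to 29.4 CPM against 18.2, 15.4 and 19.1 CPM. The groups overlapped in both assays, with log2 differences of 0.49 ± 0.25 in m6A and 0.05 ± 0.22 in input. Within a set these were 0.25 ± 0.31 and 0.28 ± 0.25.

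Tgfb2 differed between library sets. Its m6A level ran from 49.9 to 97.5 CPM in the 6 libraries of set 4 and from 19.7 to 52.3 CPM in the 13 of sets 3 and 5, whatever the treatment. At 24 h the KA mice 8, 67, 79, 97 and 98 had 19.7, 33.8, 62.5, 65.8 and 30.2 CPM and PBS mice 1, 71 and 73 had 38.8, 76.5 and 49.9 CPM, so the KA libraries of set 4 lay between its PBS libraries. The log2 difference of −0.42 ± 0.36 was −0.09 within set 4. Its log2 difference at 2 weeks was −0.55 ± 0.30 over all m6A libraries but 0.19 within set 5, where the sign turned. In input at 2 weeks KA mice ran from 13.7 through 22.2 to 39.1 CPM and the PBS mice had 20.4, 17.7 and 17.1 CPM, which overlapped, at a log2 difference of 0.36 ± 0.26, or 0.54 ± 0.30 within the set.

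Acvr1c encodes ALK7, a type I receptor for Nodal and for activin ligands, and was higher in KA libraries at both times. At 24 h its m6A level was 36.9, 41.4, 50.0, 54.7 and 33.9 CPM in KA mice 8, 67, 79, 97 and 98 and 31.2, 24.0 and 14.95 CPM in PBS mice 1, 71 and 73. At 2 weeks it ran from 52.2 through a median of 84.0 to 118 CPM in KA mice, and the PBS mice 2, 3, 4, 50 and 78 had 35.8, 31.4, 35.0, 23.3 and 25.1 CPM. The KA libraries did not overlap with the PBS libraries at either time, and the log2 differences were 0.89 ± 0.29 and 1.48 ± 0.22. Within a set the differences were 1.31 ± 0.20 at 24 h and 1.42 ± 0.26 at 2 weeks.

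The inputs of Acvr1c at 2 weeks ran from 27.7 through 73.9 to 112 CPM in KA mice against 37.1, 27.4 and 40.4 CPM in PBS mice. The groups overlapped there, at a log2 difference of 1.04 ± 0.35, or 1.12 ± 0.26 within the set. At 24 h the KA inputs held 27.5, 46.9 and 41.0 CPM in mice 8, 67 and 98 and the PBS input 25.1 CPM, so the nearest KA library was 1.10 times the PBS library.

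Acvr2a encodes a type II receptor for activins and was lower in KA than in PBS mice in the inputs at 2 weeks. At 2 weeks it ran from 39.1 through 46.3 to 56.0 CPM in KA mice and stood at 63.5, 68.7 and 79.7 CPM in PBS mice, with no overlap and a log2 difference of −0.59 ± 0.14. Within the input set without a prefix the difference was −0.58. All 3 KA inputs at 24 h (35.1, 43.1 and 45.3 CPM in mice 8, 67 and 98) lay below the only PBS library at 54.5 CPM. The same was true of 35.6% of all genes with a mean of at least 1 CPM. In m6A at 2 weeks KA mice ran from 33.6 through 57.2 to 86.2 CPM, and the PBS mice 2, 3, 4, 50 and 78 had 71.6, 84.7, 200.6, 51.5 and 44.6 CPM, with mouse 4 far above the others. That log2 difference was −0.57 ± 0.38, and −1.03 ± 0.38 within set 5, which holds mouse 4. On leaving out 1 library the difference over all libraries ran from −0.79 to −0.04. At 24 h the KA mice 8, 67, 79, 97 and 98 had 34.6, 49.0, 63.5, 48.9 and 35.1 CPM and PBS mice 1, 71 and 73 had 66.9, 44.5 and 49.0 CPM, and the log2 difference turned sign from −0.24 ± 0.26 over all libraries to 0.14 within set 4.

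Tgfbr2 encodes the type II receptor of TGF-β. Its inputs at 2 weeks ran from 10.9 through 16.9 to 36.8 CPM in KA mice against 9.77, 7.13 and 10.7 CPM in PBS mice, just clear of each other, at a log2 difference of 1.12 ± 0.38 and 1.56 ± 0.30 within the set. In m6A at 24 h KA mice 8, 67, 79, 97 and 98 had 5.34, 28.3, 34.1, 31.7 and 24.2 CPM and PBS mice 1, 71 and 73 had 9.00, 15.5 and 18.0 CPM. Mouse 8, with a high mitochondrial share, was the only KA library not above all PBS libraries there, and its input library was likewise the lowest of the 24 h inputs, at 4.94 CPM against 16.9 and 15.9 CPM in mice 67 and 98 and 7.25 CPM in the PBS mouse. At 2 weeks its m6A level ran from 5.58 through 14.6 to 49.8 CPM in KA mice against 10.1, 9.10, 8.51, 21.9 and 15.5 CPM in PBS mice 2, 3, 4, 50 and 78, with a log2 difference of 0.74 ± 0.44. Over all m6A libraries at 24 h the difference was 0.71 ± 0.46, and within a set it was 0.86 ± 0.18 at 24 h and 1.11 ± 0.32 at 2 weeks.

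Tgfbr1 and Acvr1 encode type I receptors. Tgfbr1 had 21.7, 15.2, 15.7, 15.9 and 16.9 CPM in the 24 h m6A libraries of KA mice 8, 67, 79, 97 and 98 and 20.8, 16.0 and 9.87 CPM in those of PBS mice 1, 71 and 73. At 2 weeks it ran from 23.7 through 27.3 to 32.9 CPM in KA mice against 26.5, 21.2, 22.04, 15.02 and 13.2 CPM in PBS mice 2, 3, 4, 50 and 78. The groups overlapped, with m6A log2 differences of 0.18 ± 0.34 at 24 h and 0.58 ± 0.22 at 2 weeks and 0.17 ± 0.17 in input at 2 weeks. Within a set these were 0.17 ± 0.22, 0.37 ± 0.23 and 0.34 ± 0.19. Acvr1, which encodes ALK2, had 21.0, 38.9, 49.9, 49.5 and 25.4 CPM at 24 h in the m6A libraries of the same KA mice and 17.1, 29.3 and 23.8 CPM in the PBS mice. Its inputs at 2 weeks ran from 19.1 through 27.5 to 42.1 CPM in KA mice against 21.99, 13.1 and 15.9 CPM. The groups overlapped in each comparison, with log2 differences of 0.62 ± 0.30 in m6A at 24 h, 0.28 ± 0.26 in m6A at 2 weeks and 0.82 ± 0.24 in input at 2 weeks. Within a set these were 0.79 ± 0.15, 0.43 ± 0.29 and 0.90 ± 0.26.

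**Figure D2:**
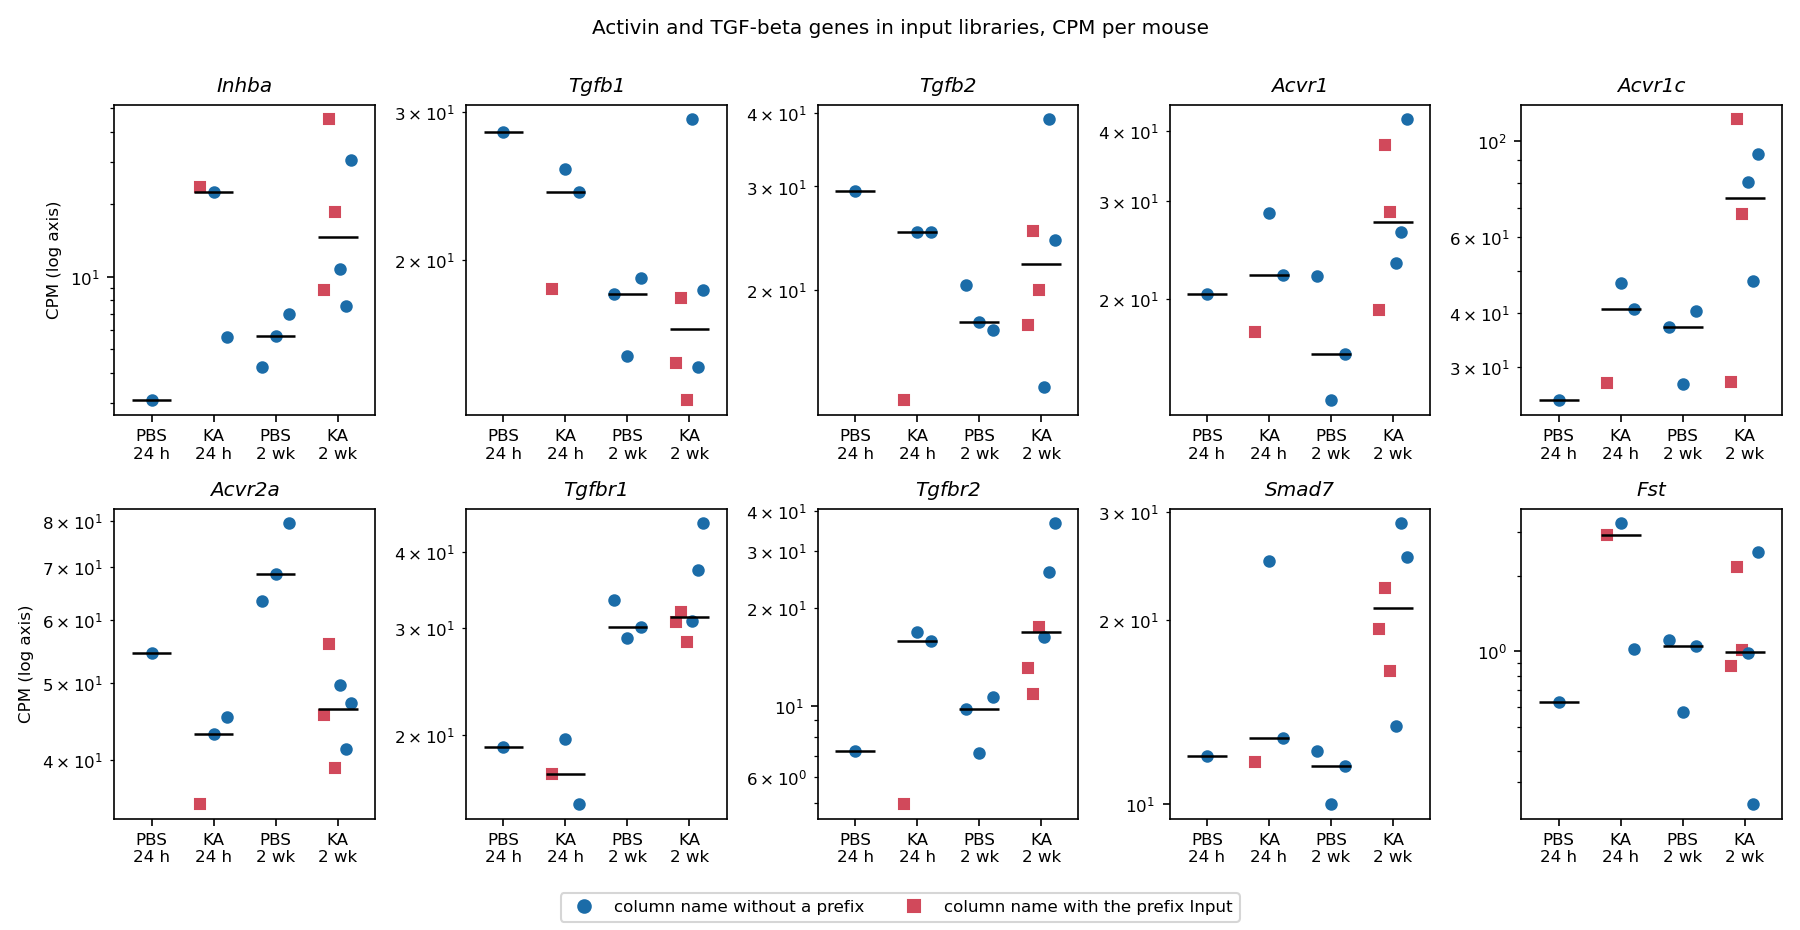
Levels of the 10 genes in the input libraries, in CPM on a log axis, with 1 point per mouse, colour and marker for the input set and a bar for the group median. At 2 weeks Inhba, Tgfbr2 and Smad7 in the 6 KA libraries lie above the 3 PBS libraries and Acvr2a below them, and at 24 h there is 1 PBS library.

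Smad7, the inhibitory Smad that blocks the type I receptors, was separated between groups in the inputs at 2 weeks alone. There it ran from 13.4 through 20.9 to 28.8 CPM in KA mice and stood at 12.2, 9.98 and 11.5 CPM in PBS mice, a log2 difference of 0.92 ± 0.23, or 1.05 ± 0.27 within the set. Its m6A level at 24 h was 11.9, 19.7, 66.3, 47.4 and 9.68 CPM in KA mice 8, 67, 79, 97 and 98 and 8.86, 21.1 and 27.8 CPM in PBS mice 1, 71 and 73. The high KA values belonged to set 4, which held 21.1 to 66.3 CPM over both treatments against 8.77 to 34.7 CPM elsewhere, and the log2 difference was 0.63 ± 0.61 over all libraries and 1.09 ± 0.24 within that set. At 2 weeks its m6A level ran from 8.77 through 18.9 to 34.7 CPM in KA mice against 10.3, 15.4, 18.999, 38.3 and 30.9 CPM in PBS mice 2, 3, 4, 50 and 78, the last 2 of set 4. The log2 difference was −0.16 ± 0.35 over all libraries and 0.43 within set 5, with a change of sign.

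Fst, which encodes follistatin, rested on few reads. At 24 h its m6A level was 5.49, 1.01, 4.13, 2.52 and 2.42 CPM in KA mice 8, 67, 79, 97 and 98, from 74, 2, 132, 34 and 4 counts. The PBS mice 1, 71 and 73 had 0.738, 0.825 and 0.429 CPM, from 10, 23 and 6 counts. Every KA library lay above every PBS library, at a log2 difference of 2.37 ± 0.67 and 2.25 ± 0.46 within set 4, though mice 67 and 98 could not be placed firmly with so few counts. In input at 24 h the KA mice 8, 67 and 98 had 2.92, 3.27 and 1.02 CPM (29, 18 and 4 counts) and the PBS mouse 0.630 CPM (8 counts). At 2 weeks its m6A level ran from 0.301 through 0.780 to 2.75 CPM in KA mice and from 0.305 to 1.09 CPM in PBS mice, and the groups overlapped in both assays. The m6A log2 difference was 0.84 ± 0.56, or 1.31 ± 0.82 within set 5. In input it did not pass the filter on low counts.

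The count of members apart between groups is read against all genes with a mean of at least 1 CPM. In m6A at 24 h the KA libraries lay above the PBS libraries for Acvr1c and Fst, against 2.62% of all genes, and for no member below, against 1.11%. In m6A at 2 weeks Acvr1c lay above (0.262% of all genes) and no member below (0.347%), with Fst under the limit of 1 CPM. The inputs at 2 weeks had Inhba, Tgfbr2 and Smad7 above (2.6%) and Acvr2a below (3.6%). In input at 24 h, with its only PBS library, Inhba, Acvr1c and Fst lay above (11.5%) and Acvr2a, Tgfb1 and Tgfb2 below (35.6%). Since these differences chose the genes, nothing is read from the counts.

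The median log2 difference over the members was 0.67 in m6A at 24 h, 0.53 in m6A at 2 weeks and 0.82 in input at 2 weeks, beside 0.08, −0.00 and 0.02 over all genes tested, and this too was fixed in part by the choice.

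**Figure D3:**
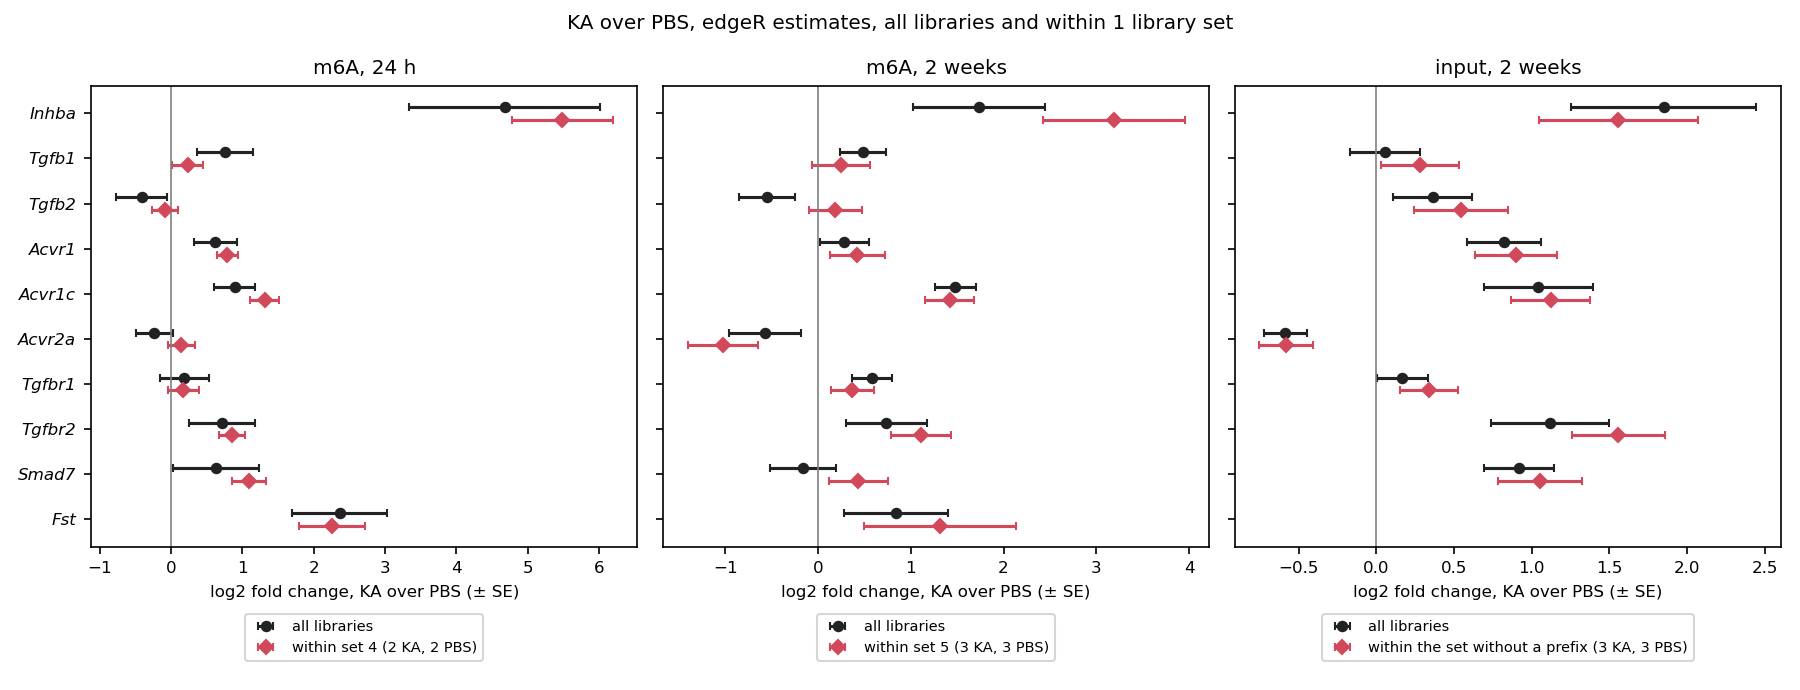
Log2 fold change of KA over PBS for each gene with its standard error, over all libraries (black) and within the only library set that holds both groups (red), for m6A at 24 h, m6A at 2 weeks and input at 2 weeks. Inhba, Acvr1c, Acvr1, Tgfb1, Tgfbr1 and Tgfbr2 are above 0 in all 3 comparisons by both estimates. By contrast, the estimates for Tgfb2 and Smad7 in m6A at 2 weeks and Acvr2a in m6A at 24 h lie on opposite sides of 0.

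At 24 h in input, a gene was counted as higher or lower where each of the 3 KA libraries lay at least 2-fold above or below the PBS library, which held for 1.61% and 1.45% of the genes with enough counts. No member met this. Inhba was 7.68, 7.34 and 1.83 times the PBS level in KA mice 8, 67 and 98, Fst 4.64, 5.20 and 1.63 times, and Tgfbr2 0.68, 2.33 and 2.19 times. Mouse 98 kept Inhba and Fst under the limit, and mouse 8 did so for Tgfbr2.

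The rest of the pathway was read from a list of 62 ligands, receptors, Smads, antagonists, regulators and target genes. Like the members, the list was chosen with earlier results of these data known. In input at 24 h 4 of the 58 with enough counts were higher in each KA library and none lower, beside the shares of all genes given above. Among them Cyr61, a matricellular protein gene, had 7.67, 7.09 and 4.35 CPM in KA mice 8, 67 and 98 against 0.867 CPM in the PBS mouse. Eng, the endothelial TGF-β co-receptor, had 2.52, 10.0 and 6.14 CPM against 1.26 CPM, and Pmepa1, a TGF-β-induced inhibitor of Smad signalling, had 25.6, 35.6 and 22.5 CPM against 10.2 CPM.

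In the m6A libraries at 24 h edgeR called 0 of these 62 genes and 0.00607% of all genes. An unadjusted P under 0.05 held for 10 of the 62 higher and 1 lower, beside 875 of all 16470 genes tested in either direction. The median log2 difference of the 62 was 0.15. The target genes had a median of 0.88 and the antagonists and activators 0.40, the Smads 0.15 and the ligands −0.09. DESeq2 called 4 higher, Ctgf, Cyr61 and Pmepa1 among them, and 1 lower, Id4, with 0.947% of all genes called, and limma voom called 9 higher and 2 lower, with 6.81% called. Within set 4 edgeR called 5 of 61, against 2.11% of all genes. Pmepa1 had 22.3, 40.4, 110.7, 75.4 and 24.8 CPM in KA mice 8, 67, 79, 97 and 98 and 8.49, 14.1 and 15.2 CPM in PBS mice 1, 71 and 73, with no overlap and an edgeR log2 difference of 2.06 ± 0.52. Ctgf, another matricellular protein gene, was named after its values were seen and had an edgeR log2 difference of 1.73 ± 0.37. Id4, an inhibitor of basic helix-loop-helix factors that is regulated by BMP signals, was named after its values were seen, and had 8.46, 14.6, 20.3, 17.9 and 16.9 CPM in the KA mice against 42.1, 41.3 and 49.1 CPM, a log2 difference of −1.55 ± 0.25 with an edgeR adjusted P of 0.103.

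At 2 weeks edgeR, DESeq2 and limma voom called 0 of 59 of the other pathway genes in m6A. By edgeR an unadjusted P under 0.05 held for 5 higher and 0 lower, beside 809 of all 16157 genes tested in either direction. Over all genes edgeR called 0%, DESeq2 0.0928% and limma voom 0.0124%. In input edgeR called 0 of 50 and 0% of all genes. An unadjusted P under 0.05 held there for 8 higher and 1 lower, beside 1938 of all 13752 genes tested in either direction. DESeq2 called 0 there (0.822% of all genes) and limma voom 3 (2.6%), with Ski and Smad3 higher and Zfyve9 lower, all 3 named after their values were seen. Their median log2 differences were 0.04 in m6A and 0.19 in input.

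**Figure D4:**
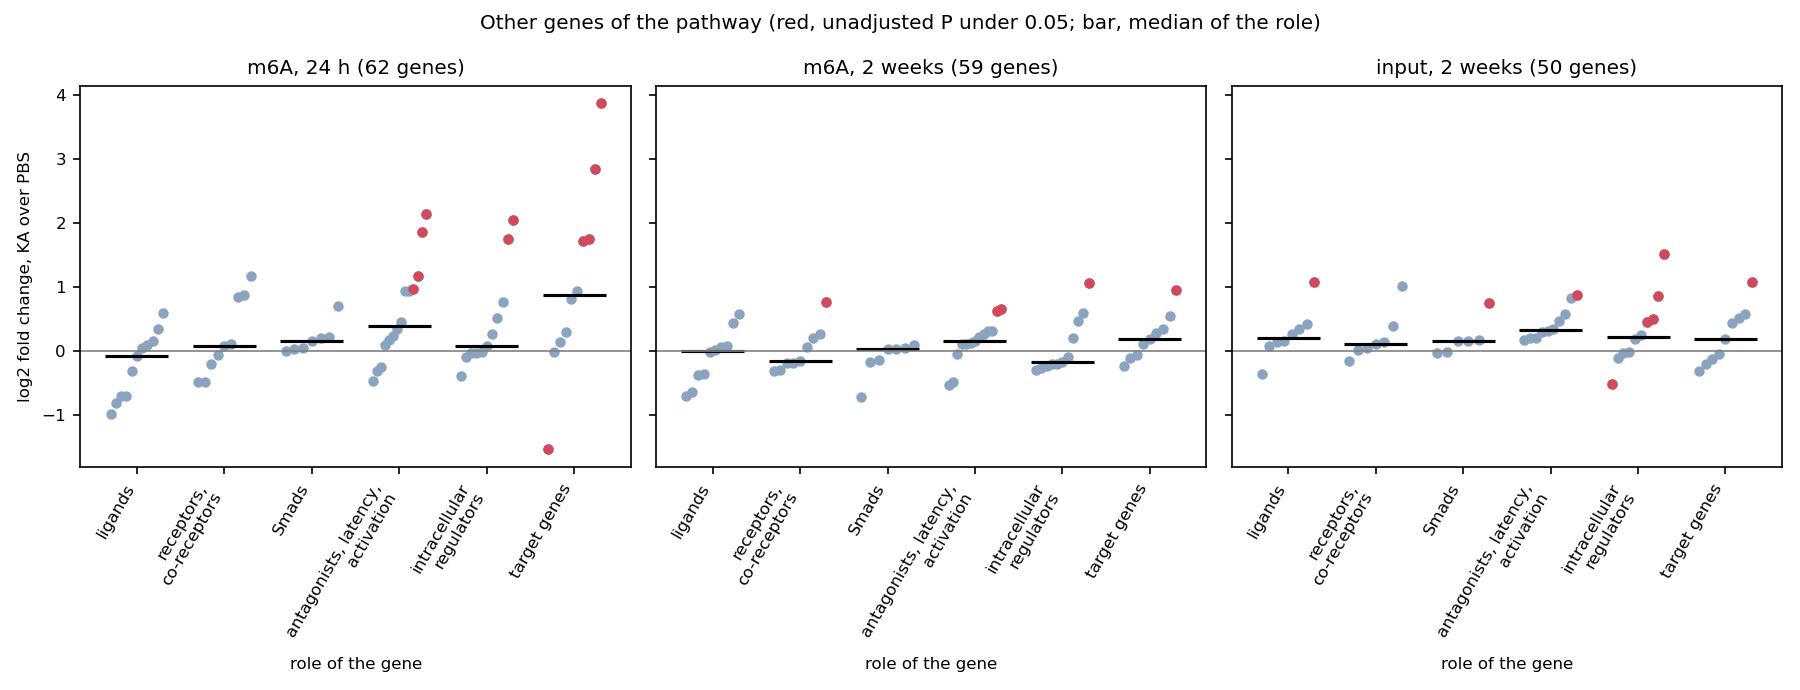
Log2 fold change of KA over PBS for the other pathway genes, grouped by role, with 1 point per gene and red for an unadjusted P under 0.05. In m6A at 24 h the target genes have a median of 0.88, and edgeR called none of the genes plotted after adjustment.

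Markers of other cells differed beside these values. Among inputs at 2 weeks all 8 microglial markers had a log2 difference above 0, with a median of 0.81 and summed levels of 163 to 382 CPM in KA mice against 114 to 178 CPM in PBS mice. All 6 astrocyte markers did too (median 0.65, 3116 to 7260 against 2015 to 4229 CPM), as did 5 of 6 endothelial markers (median 0.70), although their summed level was 433 to 1059 CPM in KA and 703 to 1003 CPM in PBS mice. In m6A at 24 h 5 of 5 measured leukocyte markers were above 0 (median 1.24, 10.8 to 55.2 against 6.37 to 20.8 CPM), as were 5 of 6 endothelial markers (median 0.48, 300 to 477 against 202 to 284 CPM) and all 6 choroid plexus markers (median 1.03, 29.1 to 973 against 46.1 to 599 CPM). Hippocampal subfield markers were above 0 in 1 of 6 there (median −0.70, 306 to 1073 against 792 to 1053 CPM). In m6A at 2 weeks 7 of 8 microglial markers were above 0 (median 0.72, 190 to 510 against 150 to 220 CPM), while 0 of 5 excitatory neuron markers (median −0.37), 1 of 6 subfield markers (−0.50) and 0 of 4 thalamic markers (−0.35) were. The summed subfield level was nonetheless 705 to 1315 CPM in KA mice (median 837) and 533 to 1483 CPM in PBS mice (median 764). The median sums in KA against PBS mice were 1735 against 1790 CPM for excitatory neuron and 110 against 159 CPM for thalamic markers. In input at that time the subfield markers were above 0 in 6 of 6 (0.52) and the excitatory neuron markers in 4 of 5 (0.51). The medians of the lists not named ran from 0.02 to 0.30 in input at 2 weeks, from −0.12 to 0.52 in m6A at 2 weeks and from −0.43 to 0.42 in m6A at 24 h. The markers at 0 in some library were leukocyte genes, S100a8, S100a9, Cd3e, Ly6c2 and Itgal among them, and the choroid plexus gene Aqp1. No marker was called by edgeR, and the part of these cells in the levels of Tgfbr2, Smad7, Eng or the target genes was not tested.

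The m6A libraries were then set against the input libraries, a ratio that the choice of genes did not use. In PBS mice at 2 weeks (5 m6A and 3 input libraries) edgeR called 0 of 9 members and 1.12% of all genes. An unadjusted P under 0.05 held for 3 of the 9 members, beside 2553 of all 15128 genes tested. Tgfb2 was relatively higher in the m6A libraries, by 1.36 ± 0.40 on the log2 scale (adjusted P = 0.156), and Tgfbr1 and Tgfb1 lower, by −0.90 ± 0.24 (adjusted P = 0.131) and −0.58 ± 0.23 (adjusted P = 0.250). Without the set 4 libraries of PBS mice 50 and 78, which had no input, the values were 0.79 ± 0.22 for Tgfb2 (adjusted P = 0.129) and −0.65 ± 0.16 for Tgfbr1 (adjusted P = 0.0889). DESeq2 called Tgfb2 and Tgfbr1 at adjusted P of 0.0208 and 0.0265, with 4.88% of all genes called, and limma voom called the same pair at 0.0481 and 0.0157, with 7.86% called.

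In KA mice at 2 weeks (6 m6A and 6 input libraries) edgeR called 0 of 10 members and 2.64% of all genes. An unadjusted P under 0.05 held for 1 of the 10 members, beside 2946 of all 15413 genes tested. Tgfbr1 stood at −0.48 ± 0.16 (adjusted P = 0.114) and Tgfb2 at 0.44 ± 0.24 (adjusted P = 0.342). DESeq2 called 0 members and 6.24% of all genes, and limma voom called Tgfbr1 (adjusted P = 0.00958) and 28.4% of all genes. With the mouse number as a block, which pairs the libraries of 1 animal and so leaves out PBS mice 50 and 78, Tgfb2 stood at 0.45 ± 0.13 (adjusted P = 0.0521) and Tgfbr1 at −0.48 ± 0.14 (adjusted P = 0.0607) in KA mice, and at 0.77 ± 0.23 (adjusted P = 0.194) and −0.65 ± 0.17 (adjusted P = 0.163) in PBS mice. The other pathway genes had 0 of 55 called by edgeR in PBS mice (unadjusted 3 higher and 3 lower) and 0 of 59 in KA mice (unadjusted 5 higher and 4 lower). These unadjusted counts stand beside those of all genes given above for each group. Of the other pathway genes DESeq2 called 1 in each group, Skil in PBS mice and Tsc22d1 in KA mice, both named after their values were seen. The calls by limma voom were 4 in PBS mice and 11 in KA mice.

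The same ratio was taken inside each of the 9 mice with both libraries, none of which had an m6A library in set 4. For Tgfb2 the log2 ratio was 0.84, 0.68 and 1.47 in PBS mice 2, 3 and 4 and 1.07, 0.31, 0.33, 0.91, 0.42 and 0.88 in KA mice 5, 6, 7, 9, 21 and 42. It was above 0 in 9 of 9 mice, as it was for 13% of all genes. It was also above each mouse's own median over all genes, which lay between 0.02 and 0.35, and Tgfbr1 was below that median in 9 of 9. No share of all genes is given for these orders, so nothing is read from them. For Tgfbr1 the log2 ratio was −0.33, −0.45 and −0.45 in the PBS mice and −0.30, −0.06, −0.12, −0.26, −0.19 and −0.82 in the KA mice. It was below 0 in 9 of 9 mice, as for 0.929% of all genes. For Inhba it ran from −1.79 to 1.45 and was above 0 in 7 of 9 mice. Each library set held 1 assay, so set and assay cannot be told apart in these ratios. Pull-down of polyadenylated RNA and a total RNA input also differ in ways other than methylation, and their part in these ratios was not tested.

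**Figure D5:**
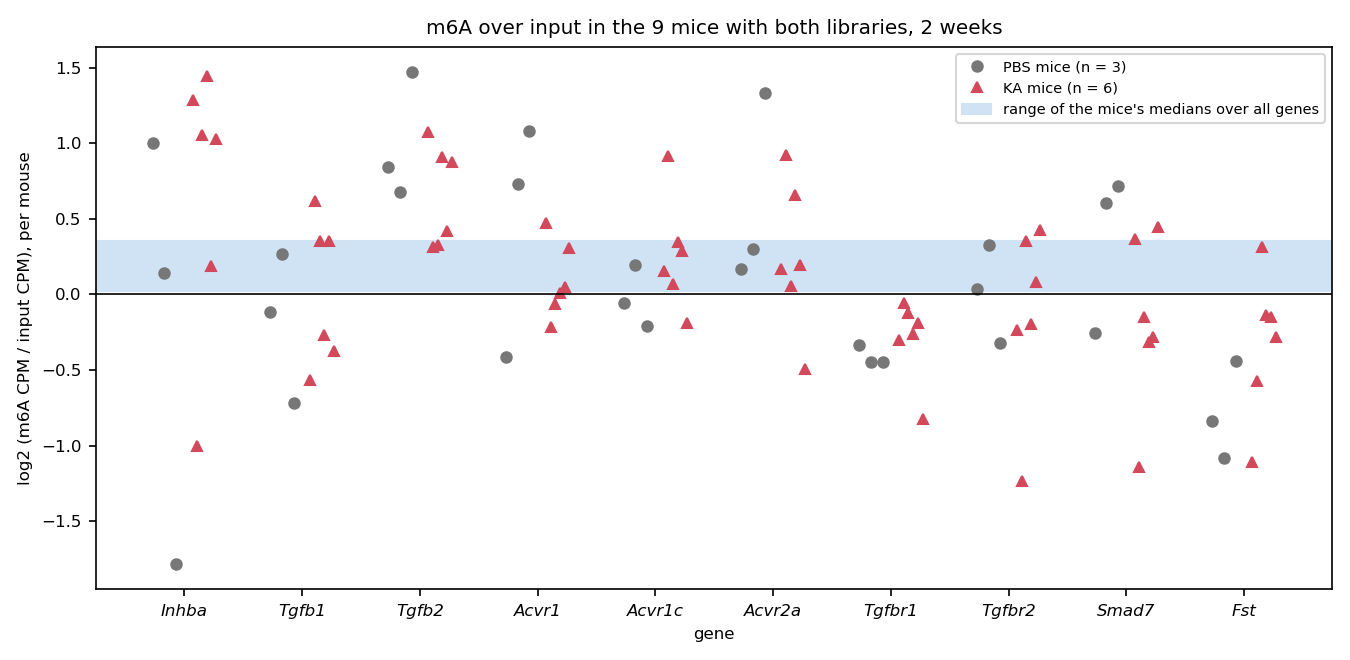
Log2 ratio of m6A over input CPM in each of the 9 mice with both libraries at 2 weeks, 3 PBS and 6 KA, for each gene, with a blue band for the range of the mice's medians over all genes (0.02 to 0.35). Tgfb2 lies above 0 and Tgfbr1 below 0 in all 9 mice, while Inhba spreads from −1.79 to 1.45.

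The change of that ratio with KA holds the difference that chose the genes and is given without a test. It was −1.09 ± 0.50 for Smad7 and −0.92 ± 0.45 for Tgfb2 on the log2 scale, and −0.47 ± 0.45 and −0.35 ± 0.39 without set 4, which held m6A libraries only. For Inhba it was −0.12 ± 1.06, and 1.01 ± 1.12 without set 4. Of the 59 other pathway genes edgeR, DESeq2 and limma voom called 0, beside 0%, 0.0248% and 0% of all genes. By edgeR an unadjusted P under 0.05 held for 0 higher and 3 lower, beside 655 of all 16141 genes tested in either direction.

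The sequence GGACT is the best known core of the m6A motif, and its density was counted in 1 canonical transcript of each gene. Tgfb2 held 6 in 5228 bases, 1.15 per kb, and Tgfbr1 3 in 5844 bases, 0.513 per kb. Over 21770 protein-coding transcripts the median was 1.01 per kb, with quartiles of 0.577 and 1.48. Tgfb1, at 2.71 per kb, was above the upper quartile and Inhba, at 0.332 per kb (2 in 6016 bases), below the lower, as were Acvr1 (0.539) and Tgfbr1. Tgfb1, with the highest density of the members, had a ratio of −0.58 in PBS mice, and a relation of ratio to density was not tested. A match is a description and not a methylated site.

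Inhba's pattern over the 19 m6A libraries was compared with that of 15550 genes with a mean of at least 1 CPM, by Spearman's correlation, as a description of libraries that share sets and treatments. The 5 most alike were Srxn1 (0.95), Nedd9 (0.94), Dyrk3 (0.92), Prss23 (0.92) and Rbms2 (0.89). Within the 6 libraries of set 4 these were 0.83, 0.94, 0.77, 0.94 and 0.66, and within the 13 of the other sets 0.90, 0.91, 0.84, 0.92 and 0.86. Srxn1 encodes sulfiredoxin and Nedd9 a scaffold protein of focal adhesions. Among the members Acvr1 (0.66), Fst (0.65) and Smad7 (0.61) came nearest to Inhba, and Acvr2a (−0.43) was the farthest.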

How the data were processed

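Hippocampal RNA from mice given KA or PBS was measured as m6A-enriched RNA (10 ng into each library) and as total RNA, or input (50 ng), with a stranded total RNA kit that marks strand. The authors deposited raw counts per gene and sequencing lane. The labels name mm10, with aligner, counter, annotation and strand setting not given in the sources used here. The 4 lanes of each library were summed. The 140 lane columns used, in 15 tables, gave 35 libraries, and 8 further lane columns that match no label were left out. The assay stands in the column name for 8 libraries and was inferred from the set prefix for 27. Groups came from the labels, 1 library per mouse and assay. Inputs under 100000 counts (3 of 16) were left out.

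All genes were fitted at once with the edgeR (4.0.16) quasi-likelihood test after its filter on low counts and TMM scaling, in R 4.3.3, with DESeq2 (1.42.0) and limma (3.58.1) voom with sample weights as alternatives. P values were adjusted by the Benjamini-Hochberg method over all genes tested. KA was compared with PBS within an assay and time, m6A with input within PBS and within KA mice at 2 weeks, and the change between these 2 as an interaction. The input libraries at 24 h, with 1 PBS library, were compared by fold alone, for genes with a mean of 10 counts and with counts under 3 set to 3. Ratios within a mouse used CPM after adding 0.5 counts. The scripts were tested on simulated data. Reads shared by overlapping genes could not be separated.

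Input and m6A libraries of 1 mouse number come from the same animal per the labels. Over the 9 mice with both, the deviations of the pair from their group means correlated at −0.05 to 0.48, and 6 of 9 matched their own number best. KA mouse 6 and PBS mice 2 and 4 did not. The correlations were 0.14 to 0.48 in KA mice, and −0.05, 0.17 and −0.02 in PBS mice 2, 3 and 4. The fits shown first leave out the mouse number as a block.

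The members and lists were chosen with earlier results of these data known. Named were all members, up to 4 other pathway genes past the threshold per comparison, and the 5 genes most like Inhba, and any other gene is said to be named after its values were seen. Promoter windows are RefSeq's in GRCm38.p6 and transcripts GENCODE's canonical ones. No window was found for Fst, and none is printed for Smad7. A gene of the pathway list that the rule names is not reported here.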

Additional observations from a re-analysis of the deposited data

Results flagged for a closer look

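Over 40 combinations of a gene and a group, 3 held a library far from the others by Dixon's test, and chance alone gives about 1 in 20 groups. Acvr2a stood at 200.6 CPM in the m6A library of PBS mouse 4 at 2 weeks, and the nearest of the 5 libraries at 84.7 CPM, a gap of 0.743 of the group's range. Tgfb1 stood at 29.4 CPM in the input library of KA mouse 5 at 2 weeks, with a gap of 0.696 of the range of the 6 libraries. Tgfbr1 stood at 21.7 CPM in the m6A library of KA mouse 8 at 24 h, with 16.9 CPM next and a gap of 0.729 of the range of the 5 libraries, and that library also held 16.4% mitochondrial counts. The cause of these values was not tested.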

How the results depend on the processing

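In the fits shown first edgeR called 0 members, so no called member value could change sign under the alternatives run. Values not called did change sign. In the change of m6A over input with KA, the sign turned in 12 of 27 alternatives for Acvr2a and 10 of 27 for Inhba. For m6A over input in KA mice it turned in 9 of 19 for Acvr1c. For KA against PBS in m6A at 2 weeks, a difference that chose the members, it turned in 2 of 19 for Tgfb2 and 4 of 19 for Smad7. It turned in 0 of 19 for every other member. The alternatives within 1 set, without set 4, without KA mice 67 and 98 and without KA mouse 6 were chosen after seeing the data. The counts of members called in KA against PBS show only what the processing does and support nothing, since that difference chose the members, and edgeR called 0 in each. The members called in input at 2 weeks were 2 by DESeq2 and 2 by limma voom. In m6A at 2 weeks Acvr1c was the 1 member called by DESeq2, by limma voom, with all m6A libraries in 1 fit and with no filter. In m6A at 24 h the members called were 2 by DESeq2, 3 by limma voom and 1 within set 4. For m6A over input, which did not choose the members, they were 2 by DESeq2 and 2 by limma voom in PBS mice and 1 by limma voom in KA mice. At 24 h in input, a limit of 1.5-fold gave 2 members, edgeR on all 7 labelled libraries 1, and leaving out 1 library 0 to 2 (1 without KA mouse 8, 2 without KA mouse 98).

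The other pathway genes called in m6A at 24 h were 5 by DESeq2, 11 by limma voom, 5 within set 4, 1 with all m6A libraries in 1 fit, and 0 to 1 on leaving out 1 library (Id4, named after its values were seen, without KA mouse 8). In input at 2 weeks they were 3 by limma voom. For m6A over input in KA mice they were 1 by DESeq2, 11 by limma voom, 4 with the mouse number as a block, 2 with library size alone and 0 to 1 on leaving out 1 library (1 without the m6A library of mouse 42 or of mouse 6). In PBS mice they were 1 by DESeq2, 4 by limma voom and 1 with library size alone. At 24 h in input the 4 became 10 at 1.5-fold, 2 by edgeR on all 7 labelled libraries, 0 by edgeR on all inputs past the depth limit, and up to 9 on leaving out 1 library (9 without KA mouse 8, 8 without KA mouse 98).

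Over all genes, the calls in m6A at 24 h went from 1 to 0 to 45 on leaving out 1 library, 31 with all m6A libraries in 1 fit, 22 with no filter, 0 with the set as a block, 0 without KA mice 67 and 98 and 3 with library size alone. At 2 weeks 0 became 2 in m6A and 4 in input with no filter. For m6A over input in PBS mice 170 became 20 to 417 on leaving out 1 library, 343 with library size alone, 297 without set 4 and 57 with the mouse block, which also leaves out set 4. In KA mice 407 became 117 to 1282 on leaving out 1 library, 1339 with the mouse block and 1347 with library size alone. At 24 h in input 488 became 840 to 1547 on leaving out 1 library, 1907 at 1.5-fold and 75 by edgeR on all 7 labelled libraries. Outside set 4 the PBS ratio of m6A over input was −0.22 for Inhba, against 0.91 with it. Depth limits Fst most, with 2 to 132 counts per m6A library at 24 h. The cause of these shifts was not tested.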
